A study of Mus musculus with 12 samples.

Results

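Expression of 49 genes of DNA replication and mitosis was followed in mouse lymph node cells given a T cell antigen, with and without protein kinase D2 (PKD2). The genes were listed by function, and each was read from the probe set with the highest mean signal among those that name that gene alone. In this way 48 of the 49 genes were measured, out of 18193 genes on the arrays, from 107 probe sets in all. Ccnb1, a B-type cyclin gene, was not analysed here. The genes were described in 2 sets, 25 for replication (14 for licensing and the replicative helicase, 8 for DNA synthesis and its checkpoint, 3 E2F factors) and 23 for mitosis.

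All mice were of the P14-TCR strain, a T cell receptor transgenic line whose CD8 T cells recognise the viral peptide gp33-41. They were either PKD2 null, which is to say without the kinase encoded by Prkd2, or wild type, with 3 mice of each genotype. The cells of each mouse were cultured for 4 h with the peptide at 62.5 ng/ml and, in parallel, without it, which gave 12 arrays in 4 groups of 3: null with peptide, null without peptide, wild type with peptide and wild type without peptide. The cells were an unsorted lymph node suspension, and neither the age of the mice nor the way the null allele was made is given in the sources used here.

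A eukaryotic cell licenses its replication origins when the origin recognition complex, Cdc6 and Cdt1 load the Mcm helicase, and the licensed origins fire later, when Cdc45 and the GINS proteins join the helicase and the polymerases, clamp and clamp loader are brought in. Mitosis follows under cyclin-dependent kinase, Aurora and Polo-like kinases, and ends when the anaphase-promoting complex has its substrates destroyed. Many replication genes are targets of the E2F factors, while many mitosis genes are switched on later through CHR and CCAAT elements in their promoters. Naive T cells rest outside the cell cycle, and their first S phase comes many hours after antigen recognition, later than the time sampled here.

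Values are log2 signals as deposited, differences are given in log2 units with the fit's standard error (SE), and a gene was said to rise or fall where the adjusted p of limma's test was under 0.05. Prkd2 itself averaged 5.48 ± 0.12 in null cells with peptide and 8.33 ± 0.178 in wild-type cells with peptide (SD, n = 3 each), a difference of -2.85 (adjusted p = 2.5e-06). Without peptide it averaged 6.00 ± 0.291 in null cells and 10.17 ± 0.172 in wild-type cells, a difference of -4.17 (adjusted p = 2.7e-08), and every null array was below every wild-type array. Array medians lay between 4.67 and 4.72, and replicate arrays correlated at 0.991 or more. Markers of T cells (5 genes, mean 10.56 to 11.46 per array) and of B cells (10 genes, mean 7.86 to 9.75 per array) were both well above the array medians throughout. Of the members, 3 replication genes (Cdc6, Mcm10 and Chek1) and 8 mitosis genes (Mybl2, Aurkb, Bub1, Ttk, Kif11, Kif20a, Cenpe and Tpx2) had a mean signal under 5, near or below the medians of the arrays. Another limit is that 7 replication genes and 3 mitosis genes were read from probe sets whose names (x_at or s_at) mark possible binding to several transcripts.

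Of the genes called with peptide in both genotypes, those with the smallest adjusted p in wild-type cells were Cdt1 and Mcm7 for replication and Cenpa and Kif22 for mitosis, and their promoters are shown because the sets are known to differ in the elements they carry. Each window runs from 250 bases before to 50 bases after a transcription start in RefSeq (build GRCm38.p6), 5′ to 3′ on the gene's strand, with Mcm7 having 2 starts. Capitals mark matches, on either strand, to an E2F site (TTTCCCGC, TTTCGCGC, TTTGCCGC or TTTGGCGC), to the CHR (TTTGAA) or to the CCAAT box (CCAAT). The windows are chr8:122567765-122568064 (plus strand) for Cdt1, chr5:138171834-138172133 and chr5:138171217-138171516 (minus strand) for Mcm7, chr5:30666636-30666935 (plus strand) for Cenpa and chr7:127042371-127042670 (minus strand) for Kif22.
Cdt1: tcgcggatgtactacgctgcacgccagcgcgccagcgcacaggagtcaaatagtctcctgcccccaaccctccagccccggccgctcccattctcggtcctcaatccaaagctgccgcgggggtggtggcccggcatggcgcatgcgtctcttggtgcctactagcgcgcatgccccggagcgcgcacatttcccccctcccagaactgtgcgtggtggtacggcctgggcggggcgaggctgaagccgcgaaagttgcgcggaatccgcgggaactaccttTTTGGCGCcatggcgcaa
Mcm7, first start: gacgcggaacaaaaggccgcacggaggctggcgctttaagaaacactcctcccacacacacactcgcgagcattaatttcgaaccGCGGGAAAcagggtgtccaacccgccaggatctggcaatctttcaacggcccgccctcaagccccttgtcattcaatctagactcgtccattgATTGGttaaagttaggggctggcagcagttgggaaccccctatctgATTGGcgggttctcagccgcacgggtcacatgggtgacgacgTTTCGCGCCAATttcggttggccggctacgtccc
Mcm7, second start: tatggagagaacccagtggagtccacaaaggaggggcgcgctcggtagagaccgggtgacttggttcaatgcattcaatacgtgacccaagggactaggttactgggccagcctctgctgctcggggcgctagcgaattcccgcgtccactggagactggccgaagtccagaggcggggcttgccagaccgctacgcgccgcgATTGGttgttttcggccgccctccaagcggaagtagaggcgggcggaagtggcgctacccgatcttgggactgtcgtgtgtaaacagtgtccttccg
Cenpa: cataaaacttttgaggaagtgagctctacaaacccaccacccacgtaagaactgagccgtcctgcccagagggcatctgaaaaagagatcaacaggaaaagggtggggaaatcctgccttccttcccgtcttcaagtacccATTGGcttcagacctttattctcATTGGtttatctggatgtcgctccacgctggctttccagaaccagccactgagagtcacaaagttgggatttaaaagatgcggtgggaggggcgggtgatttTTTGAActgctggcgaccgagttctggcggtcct
Kif22: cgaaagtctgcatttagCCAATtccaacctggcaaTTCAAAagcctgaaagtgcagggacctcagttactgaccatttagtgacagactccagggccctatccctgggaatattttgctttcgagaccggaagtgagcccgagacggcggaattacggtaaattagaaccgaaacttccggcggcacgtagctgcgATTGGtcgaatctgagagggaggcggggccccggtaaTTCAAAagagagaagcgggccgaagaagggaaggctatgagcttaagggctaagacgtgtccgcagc

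The Cdt1 window held an E2F match at base 283 of the window and no CHR or CCAAT match. The first Mcm7 window held E2F matches at bases 86 and 267 and CCAAT matches at bases 179, 225 and 274, the last of which begins on the final base of the second E2F match. The second Mcm7 window held only a CCAAT match, at base 204. The Cenpa and Kif22 windows held no E2F match. A CHR match stood at base 267 in Cenpa, beside CCAAT matches at bases 142 and 165, and CHR matches stood at bases 36 and 234 in Kif22, beside CCAAT matches at bases 18 and 197. A window was found for 40 of the 49 listed genes, 21 for replication and 19 for mitosis, Ccnb1 among them. An E2F match was held by 12 of the 21 replication genes (44.4% of their 27 windows) and 1 of the 19 mitosis genes, Cdk1, against 2.6% of all genes and 2.26% of all 32851 windows. A CHR match was held by 5 of 21 replication genes (18.5% of their windows) and 13 of 19 mitosis genes (68.4% of their windows), against 20.2% of all genes and 17.9% of all windows. CCAAT was held by 14 of 21 and 16 of 19 genes, against 41.1% of all genes. These are matches of letters and say nothing of which factor was bound.

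The first question was what peptide did to the replication genes within 4 h. In null cells 4 of 25 rose (Orc6, Pcna, Rfc4 and E2f3) and 7 fell (Cdt1, Mcm4, Mcm6, Mcm7, Rfc3, Pole and Lig1), and in wild-type cells the same 4 rose and 6 of the same 7 fell, Rfc3 being the exception. Of all genes, 12.5% rose and 19% fell in null cells, and 15.1% rose and 20.4% fell in wild-type cells, so the shares of replication genes called were near those of the arrays as a whole. The median difference over the 25 genes was -0.164 in null cells and -0.031 in wild-type cells, beside -0.02 and 0.014 over all genes. Licensing, synthesis and E2F genes each held at least 1 gene that rose. In a mixed suspension, fewer cells of a type and less RNA per cell cannot be told apart for any of these values.

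Of the 14 licensing and helicase genes 4 fell in each genotype, and of the 8 synthesis genes 3 fell in null and 2 in wild-type cells. Cdt1, which loads the helicase at origins, read 11.03, 11.05 and 10.99 in null cells with peptide, against 11.58, 11.67 and 11.59 without it. Wild-type cells read 10.80, 10.74 and 10.81 for Cdt1 with peptide, against 11.62, 11.71 and 11.66 without it. The values with peptide lay below those without it in both genotypes, and the fall was 1.5-fold in null cells (-0.59, SE 0.0707, adjusted p = 4.2e-05) and 1.84-fold in wild-type cells (-0.88, adjusted p = 9.5e-07). A second Cdt1 probe set also fell, by 0.34 in null and 0.58 in wild-type cells, and another, dim one was not called.

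Mcm7, a helicase subunit, read 10.46, 10.41 and 10.39 in null cells with peptide, against 11.41, 11.15 and 11.30 without it. Its wild-type values were 10.05, 10.19 and 10.23 with peptide, against 11.12, 11.32 and 11.13 without it. The groups with and without peptide did not overlap, with a fall of 1.82-fold in null cells (-0.87, SE 0.0936, adjusted p = 1.8e-05) and of 2.04-fold in wild-type cells (-1.03, adjusted p = 2.6e-06). All 3 other Mcm7 probe sets fell as well in both genotypes, by 0.73 to 0.86.

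The remaining helicase subunits moved less. Mcm4 read 9.59, 9.73 and 9.51 in null cells with peptide, against 9.93, 10.04 and 9.89 without it, and the fall of 0.34 (SE 0.0943, adjusted p = 0.016) was larger than the spread of either group. In wild-type cells Mcm4 read 9.67, 9.46 and 9.68 with peptide, against 10.10, 9.92 and 9.97 without it, a fall of 0.40 (adjusted p = 0.0058). Neither pair of groups overlapped, although the null call was lost without null mouse 1 (adjusted p = 0.089) or null mouse 3 (adjusted p = 0.096). A second bright Mcm4 probe set fell by 0.37 in wild-type cells. In null cells it was not called (-0.21, adjusted p = 0.32), and its groups overlapped. Mcm6 read 10.22, 10.13 and 10.16 in null cells with peptide, against 10.55, 10.44 and 10.41 without it, and fell by 0.30 (SE 0.0745, adjusted p = 0.01). In wild-type cells Mcm6 read 9.93, 9.93 and 10.04 with peptide, against 10.20, 10.21 and 10.25 without it, and fell by 0.25 (adjusted p = 0.021). The Mcm6 call was lost in null cells on leaving out any 1 null mouse (adjusted p of 0.051 to 0.058), in wild-type cells on leaving out any 1 wild-type mouse (0.056 to 0.12), and in both when all its probe sets were averaged, since a second bright one read 0.06 higher in null and 0.03 lower in wild-type cells. The partners Mcm2, Mcm3 and Mcm5 were not called, with differences of 0.03 to 0.21 in null cells and 0.15 to 0.21 in wild-type cells, although a dimmer Mcm2 probe set rose by 0.38 in null and 0.40 in wild-type cells, and a dimmer Mcm5 probe set rose by 0.40 in wild-type cells (adjusted p = 0.006) and differed by 0.18, not called, in null cells.

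Orc6, a subunit of the origin recognition complex, went the other way. It read 8.04, 8.10 and 7.93 in null cells with peptide, against 7.53, 7.68 and 7.69 without it, a rise of 1.31-fold (0.39, SE 0.0903, adjusted p = 0.0058). In wild-type cells Orc6 read 8.09, 8.07 and 7.92 with peptide, against 7.29, 7.49 and 7.31 without it, a rise of 1.59-fold (0.67, adjusted p = 7.8e-05). With peptide the null and wild-type values covered the same range, and the lower values without peptide were those of wild type. The null call was lost without null mouse 1 (adjusted p = 0.073). Orc1, Cdc6, Mcm10, Cdc45, Gins1 and Gins2, which complete the licensing and helicase genes, were not called in either genotype. Among them Cdc45 had the largest difference, -0.58 in null cells (adjusted p = 0.063) and -0.09 in wild-type cells (adjusted p = 0.83), and it was called in null cells with the mouse as a block (adjusted p = 0.022).

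Among the synthesis genes Pcna, the sliding clamp, was the brightest member of the set. It read 12.81, 12.71 and 12.82 in null cells with peptide, against 12.16, 12.20 and 11.97 without it. Wild-type cells read 12.75, 12.59 and 12.72 for Pcna with peptide, against 11.98, 11.97 and 12.06 without it. Values with peptide were above those without it on all arrays, and the rise was 1.60-fold in both genotypes (0.68, SE 0.0857, adjusted p = 6.5e-05 in null and 4.3e-05 in wild-type cells). Rfc4, a clamp loader subunit, read 7.52, 7.51 and 7.60 in null cells with peptide, against 7.07, 7.14 and 6.97 without it, and rose by 0.49 (SE 0.0863, adjusted p = 0.0009). In wild-type cells Rfc4 read 7.10, 7.36 and 7.14 with peptide, against 6.67, 6.72 and 6.67 without it, and rose by 0.51 (adjusted p = 0.00047). Null values of Rfc4 were above wild-type ones with and without peptide, so the wild-type cells with peptide reached the level of null cells without it.

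Lig1, the ligase that joins Okazaki fragments, fell most of the synthesis genes. It read 7.71, 8.02 and 7.47 in null cells with peptide, against 8.60, 8.80 and 8.42 without it, a fall of 1.83-fold (-0.87, SE 0.138, adjusted p = 0.00037). In wild-type cells Lig1 read 7.38, 7.60 and 7.63 with peptide, against 8.63, 8.58 and 8.51 without it, a fall of 2.06-fold (-1.04, adjusted p = 6.4e-05). In null cells mouse 2 was the highest and mouse 3 the lowest both with and without peptide. Pole, the catalytic subunit of polymerase epsilon, read 6.45, 6.62 and 6.49 in null cells with peptide, against 6.85, 7.14 and 6.97 without it, and fell by 0.46 (SE 0.0877, adjusted p = 0.0015). In wild-type cells Pole read 6.17, 6.22 and 6.22 with peptide, against 6.54, 6.59 and 6.59 without it, and fell by 0.37 (adjusted p = 0.0055). The null values with peptide were thus close to the wild-type values without it. Rfc3, another clamp loader subunit, averaged 6.98 ± 0.247 in null cells with peptide and 7.46 ± 0.243 without it (SD, n = 3 each), a difference of -0.48 (adjusted p = 0.028), while in wild-type cells the difference was -0.14 (adjusted p = 0.57). A second Rfc3 probe set was not called (-0.20 in null cells). The Rfc3 call was lost under quantile normalization (adjusted p = 0.078), with all probe sets averaged (0.056), without null mouse 3 (0.2) and without wild-type mouse 3 (0.051). Pola1, Fen1 and Chek1 were not called, with differences of -0.19 to 0.11 in null cells and -0.16 to 0.25 in wild-type cells, although a dimmer probe set of Fen1, the flap endonuclease, differed by 0.12, not called, in null cells and rose by 0.49 in wild-type cells. With the block Fen1 was called in wild-type cells (adjusted p = 0.041).

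Of the E2F factors, which activate replication genes, only E2f3 was called. It read 6.64, 6.43 and 6.71 in null cells with peptide, against 5.75, 6.03 and 6.07 without it, a rise of 1.56-fold (0.64, SE 0.126, adjusted p = 0.0019). In wild-type cells E2f3 read 6.81, 6.52 and 6.90 with peptide, against 6.46, 6.24 and 6.23 without it, a rise of 1.35-fold (0.43, adjusted p = 0.02). The lower values without peptide were those of null cells, and mouse 2 was the lowest with peptide in both genotypes. The wild-type call was lost without wild-type mouse 1 (adjusted p = 0.055) or wild-type mouse 3 (adjusted p = 0.19). E2f1 differed by 0.01 in null and 0.09 in wild-type cells, and E2f2 by -0.44 (adjusted p = 0.067) and -0.33 (adjusted p = 0.16).

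**Figure D1:**
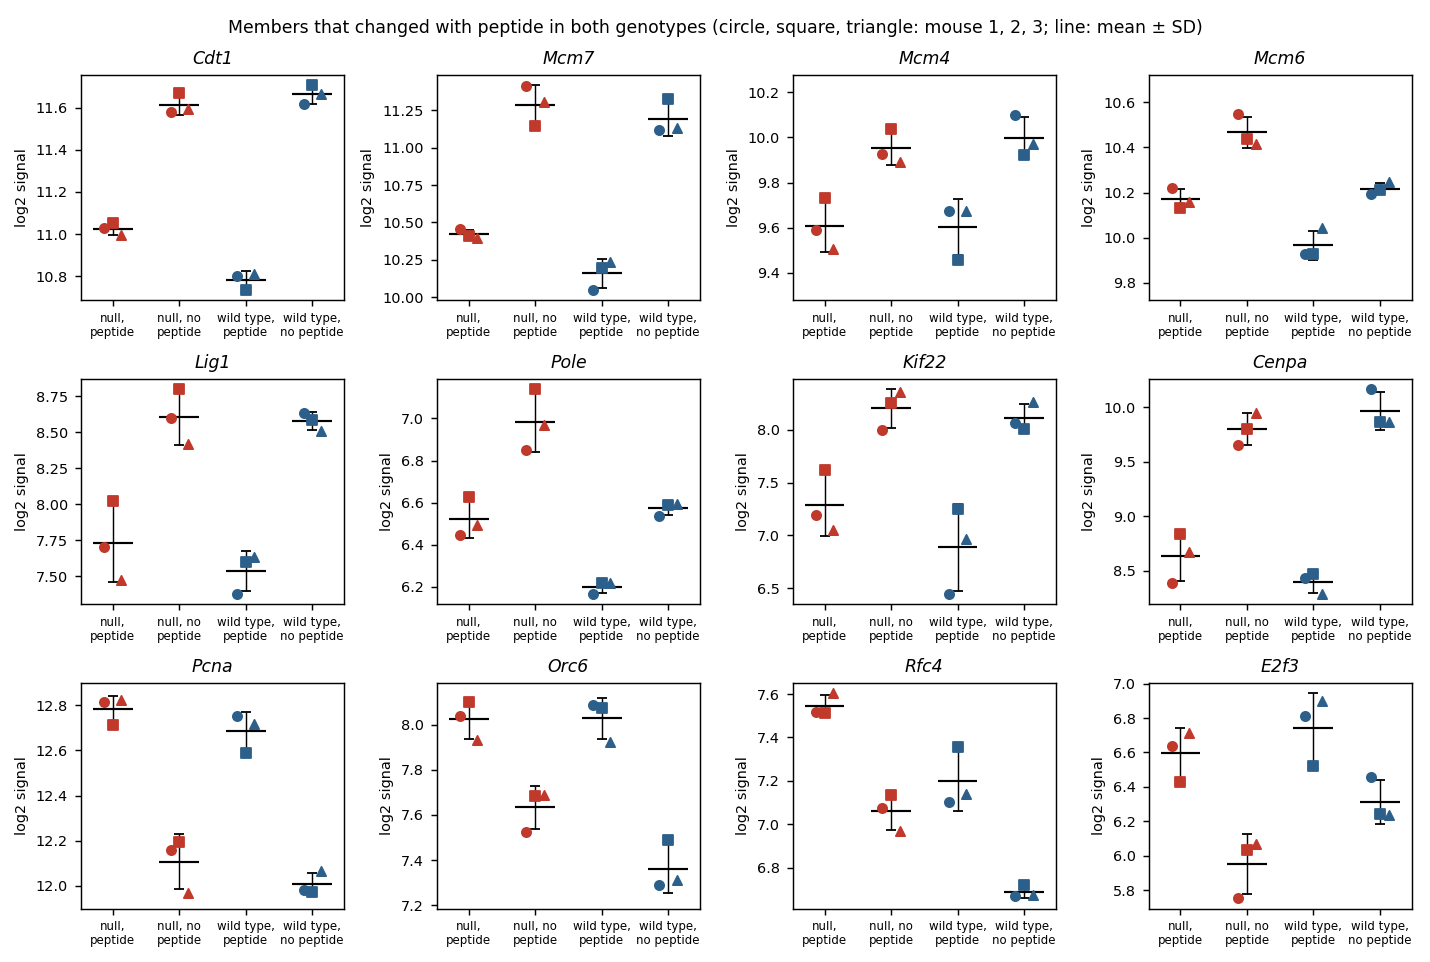
Log2 signal (vertical axis, a scale of its own in each panel) of the 12 members that rose or fell with peptide in both genotypes, by group; points are arrays, with circle, square and triangle for mouse 1, 2 and 3, and lines give mean ± SD. Cdt1, Mcm7, Mcm4, Mcm6, Lig1, Pole, Kif22 and Cenpa sit lower with peptide and Pcna, Orc6, Rfc4 and E2f3 higher, in null (red) and wild-type (blue) cells alike.

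Of the 23 mitosis genes Cenpa and Kif22 fell with peptide in both genotypes, and 0 rose. Once the mouse was taken as a block, 17 fell in null cells, against 21.4% of all genes, and 0 rose. The counts without the block were 2 falls and 0 rises in each genotype, against 12.5% of all genes rising and 19% falling in null cells and 15.1% and 20.4% in wild-type cells. The median difference over the 23 genes was -0.488 in null cells and -0.043 in wild-type cells, while the median over all genes was -0.02 and 0.014. On leaving out 1 mouse the mitosis median ran from -0.521 to -0.465 in null cells. In wild-type cells it ran from -0.242, without wild-type mouse 2, to 0.078. At an unadjusted p under 0.05, 6 fell in null cells and 2 in wild-type cells, and 0 rose in either. A dimmer probe set of Cenpe, the kinetochore kinesin, was also called, with a fall of 0.71 in null cells (adjusted p = 0.036) and of 0.65 in wild-type cells (adjusted p = 0.047).

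Cenpa, the centromeric histone variant, had the largest change with peptide of all 48 genes, in both genotypes. It read 8.39, 8.83 and 8.67 in null cells with peptide, against 9.65, 9.80 and 9.94 without it. In wild-type cells Cenpa read 8.43, 8.47 and 8.29 with peptide, against 10.16, 9.86 and 9.87 without it. All values with peptide were below all values without it, and the fall was 2.24-fold in null cells (-1.17, SE 0.128, adjusted p = 2e-05) and 2.96-fold in wild-type cells (-1.57, adjusted p = 1.1e-06). A second probe set of Cenpa fell by 1.14 in null and 2.37 in wild-type cells, and a dim one fell by 0.24 in null cells and was not called in wild-type cells. Kif22, a kinesin that binds chromosome arms, read 7.20, 7.62 and 7.05 in null cells with peptide, against 8.00, 8.25 and 8.36 without it, a fall of 1.88-fold (-0.91, SE 0.194, adjusted p = 0.0032). In wild-type cells Kif22 read 6.44, 7.25 and 6.96 with peptide, against 8.07, 8.01 and 8.26 without it, a fall of 2.34-fold (-1.23, adjusted p = 0.00028). Mouse 2 was the highest of its group with peptide in both genotypes, and the null call was lost without null mouse 3 (adjusted p = 0.064). Both other Kif22 probe sets fell in both genotypes, by 0.80 to 1.35.

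The arrays of a mouse were paired by their labels, and taking the mouse as a block changed the mitosis result in null cells. With the block 17 of 23 mitosis genes fell in null cells and 3 in wild-type cells, against 21.4% and 22% of all genes, and 0 rose in either, against 13.4% and 16.3% of all genes. The count of 17 was 8 without null mouse 1, 8 without null mouse 2 and 7 without null mouse 3, against 17.2%, 18.3% and 17.3% of all genes, and 15 to 18 on leaving out a wild-type mouse. The wild-type count of 3 was 6 without wild-type mouse 2, against 19.8% of all genes, and 2 without wild-type mouse 1 or null mouse 2. The 17 were 8 of 9 cyclin and kinase genes (Ccna2, Ccnb2, Cdk1, Aurka, Aurkb, Plk1, Bub1 and Ttk), 8 of 10 spindle, kinetochore and chromosome genes (Kif20a, Kif22, Cenpa, Cenpe, Nusap1, Birc5, Top2a and Mki67) and Ube2c of the exit genes. The wild-type calls were Cenpa, Kif22 and Aurka, the Aurora kinase of the centrosome (-0.42, adjusted p = 0.038). In null cells the largest blocked falls after those of Cenpa were Nusap1, a spindle microtubule protein (-0.95, adjusted p = 0.00081), Kif22 (-0.91, adjusted p = 0.0022) and Aurkb, the chromosomal passenger kinase (-0.79, adjusted p = 0.004). Counted by mouse and without a test, 18 of 23 mitosis genes were lower with peptide in all 3 null mice and 6 of 23 in all 3 wild-type mice, against 33.7% and 30.5% of all genes. The wild-type counts by mouse and with the block use the labelled pair of wild-type mouse 2, which the values do not bear out. Deviations from group means correlated at 0.116 in that pair, and at 0.129 between its array with peptide and that of wild-type mouse 3 without it.

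Foxm1 and Mybl2, which drive transcription of mitosis genes, were not called. Foxm1 differed by -0.03 in null and 0.10 in wild-type cells, and Mybl2 by 0.08 and 0.13, with adjusted p of 0.45 to 0.89, and neither was called with the block. Tpx2, which activates the Aurora kinase on the spindle, differed by 0.34 in null and 0.36 in wild-type cells (adjusted p = 0.3 and 0.24), but its probe sets disagreed. A dimmer one fell in null cells (-0.39, adjusted p = 0.038) and differed by 0.26, not called, in wild-type cells, and another differed by -0.33 and 0.15, not called.

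Per mouse, the mean over the 23 mitosis genes moved by -0.511, -0.417 and -0.504 in null mice 1 to 3 and by -0.379, 0.164 and -0.196 in wild-type mice 1 to 3. The null mice lay close together, while wild-type mouse 2, whose pair the values do not bear out, had a mean above that of the array labelled as its own without peptide. The same mean over replication genes moved by -0.109, -0.118 and -0.113 in null mice and by -0.109, -0.05 and -0.014 in wild-type mice, so it was slightly lower with peptide in all 6. Of 10 B cell markers 5 fell in null cells (10 with the block) and 6 in wild-type cells (8 with the block). Their median difference was -0.674 in null and -0.667 in wild-type cells. Of all genes, 19% fell in null and 20.4% in wild-type cells (21.4% and 22% with the block). Of the 5 T cell markers measured 1 fell in null and 3 in wild-type cells, of 6 myeloid markers 1 fell in each (4 and 3 with the block), and of 5 plasma cell markers 3 fell in null cells (4 with the block) and 2 in wild-type cells (2 with the block). Of 5 germinal centre B cell markers 1 rose and 1 fell in null cells (1 and 2 with the block). In wild-type cells 1 of them rose and 0 fell (0 and 1 with the block). The part of these markers in the mitosis result was not tested.

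**Figure D2:**
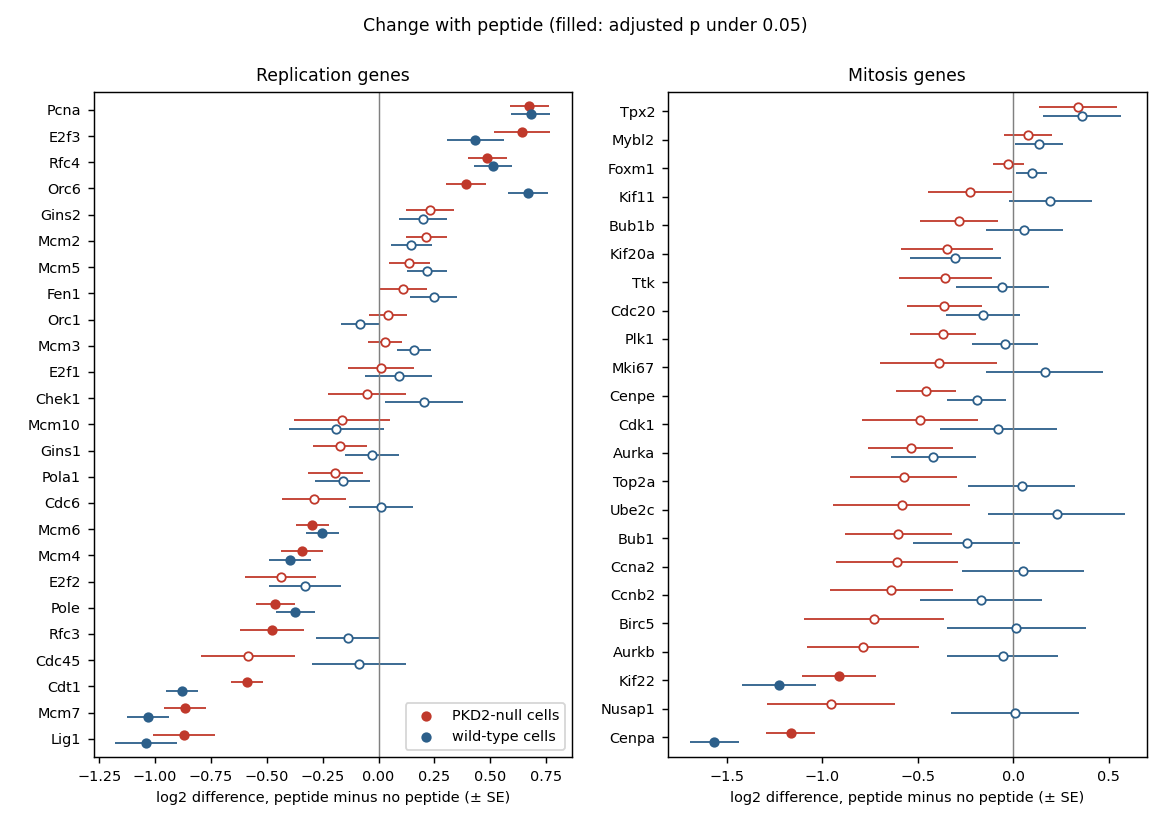
Log2 difference, peptide minus no peptide, with its SE (horizontal axis), for the 25 replication genes (left) and 23 mitosis genes (right), in null (red) and wild-type (blue) cells; filled points have an adjusted p under 0.05 without the mouse as a block. Replication genes spread to both sides of 0 alike in both genotypes, while 21 of 23 mitosis genes lie below 0 in null cells and 12 of 23 in wild-type cells.

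Whether the peptide effect itself differed between genotypes was tested as the difference of the effects, null minus wild type. None of the 48 genes was called, with or without the block, against 0.0055% of all genes without it and 0.137% with it. Without the block an unadjusted p under 0.05 was reached by 1 replication gene (Cdt1, 0.29, adjusted p = 0.59) and 1 mitosis gene (Cenpa, 0.40, adjusted p = 0.69), both with a smaller fall in null cells, against 2.7% of all genes above 0 and 5.01% below it. With the block it was reached by Cdt1 again and by 9 mitosis genes, of which Cenpa was above 0 and the other 8 were below it. The 8 were Nusap1, Top2a, Aurkb, Mki67, Ube2c, Ccna2, Birc5 and Kif11. A value below 0 is a more negative change in null cells, not a lower level. With peptide these 8 still averaged higher in null than in wild-type cells, by 0.26 (Aurkb) to 0.82 (Birc5), none called. Of all genes, 4.17% were above 0 and 6.43% below it with the block, and the adjusted p of the 9 mitosis genes ran from 0.17 to 0.43. The median over mitosis genes was -0.344, with 21 of 23 below 0, beside -0.044 over replication genes and -0.024 over all genes. On leaving out 1 mouse the mitosis median ran from -0.392 to -0.184, the value nearest 0 being that without wild-type mouse 2. Over the probe sets used for the 48 genes, the largest difference was that of Nusap1, at -0.96 (SE 0.476, adjusted p = 0.73, and 0.17 with the block). A dimmer Cenpa probe set had a larger one of opposite sign, 1.23 (adjusted p = 0.63), and a dim one of Tpx2 had -0.65 (adjusted p = 0.47). The larger count of blocked calls in null than in wild-type cells was therefore not shown to be a difference between the genotypes.

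The second question was whether null and wild-type cells differed before peptide. None of the 48 genes was called, against 0.044% of all genes. The median difference was 0.681 over 23 mitosis genes, 0.121 over 25 replication genes and 0.008 over all genes. All 3 null values were above all 3 wild-type values for 14 mitosis genes and 7 replication genes, against 9.59% of all genes. An unadjusted p under 0.05 with a higher null value was reached by 17 mitosis genes and 8 replication genes, against 6.8% of all genes. Adjusted p over the mitosis genes ran from 0.16 to 0.99.

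Of the mitosis genes 8 had a log2 difference of at least 1 without being called. Birc5, a subunit of the chromosomal passenger complex, read 6.56, 7.12 and 5.90 in null cells without peptide, against 5.54, 4.58 and 4.76 in wild-type cells, a difference of 1.57 (SE 0.366, adjusted p = 0.19). Ube2c, the ubiquitin-conjugating enzyme of the anaphase-promoting complex, read 7.37, 8.14 and 6.95 in null cells, against 6.28, 6.01 and 5.70 in wild-type cells (1.49, SE 0.358, adjusted p = 0.2). In both the groups did not overlap, with null mouse 2 the highest, null mouse 3 the lowest of the null mice and wild-type mouse 1 the highest of the wild-type mice.

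Among the cyclins and their kinase, Ccnb2, a B-type cyclin, read 6.01, 6.88 and 5.62 in null cells without peptide, against 4.93, 4.65 and 4.88 in wild-type cells (1.35, SE 0.32, adjusted p = 0.2). Ccna2, the A-type cyclin of dividing cells, read 7.20, 7.90 and 6.88 in null cells, against 6.32, 5.91 and 5.83 in wild-type cells (1.31, SE 0.319, adjusted p = 0.21). Cdk1, the kinase that drives entry into mitosis, read 6.56, 7.34 and 6.16 in null cells, against 5.84, 5.63 and 5.57 in wild-type cells (1.00, SE 0.306, adjusted p = 0.34). Null mouse 2 was the highest array for all 3 of them, and the null values were spread more widely than the wild-type ones.

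The same order of null mice held for 3 chromosome and spindle genes. Nusap1 read 6.82, 7.71 and 6.70 in null cells without peptide, against 5.98, 5.76 and 5.54 in wild-type cells (1.31, SE 0.337, adjusted p = 0.24). Mki67, which coats mitotic chromosomes and marks proliferating cells, read 7.64, 8.38 and 7.52 in null cells, against 6.87, 6.52 and 6.32 in wild-type cells (1.28, SE 0.306, adjusted p = 0.2). Top2a, the topoisomerase that disentangles sister chromatids, read 8.05, 8.63 and 7.67 in null cells, against 7.24, 6.78 and 6.56 in wild-type cells (1.26, SE 0.28, adjusted p = 0.16). Every null mouse was above every wild-type mouse for these 3 as well. The smallest differences of the set were those of Foxm1 (-0.05), Mybl2 (0.03), Tpx2 (0.01), Kif22 (0.09) and Cenpa (-0.17), whose groups overlapped. Other, dimmer probe sets of Tpx2 and Kif22 read otherwise, with 0.60 for 1 of Tpx2 (adjusted p = 0.13) and 0.46 and 0.51 for those of Kif22 (adjusted p = 0.42 each), all without overlap and none called. A dimmer probe set of Cenpa read -0.62 (adjusted p = 0.62), with groups that overlapped. Among replication genes Cdc6, the Mcm loader, had the largest difference (0.53, adjusted p = 0.26), and Rfc4 (0.37, adjusted p = 0.18), Pole (0.41, adjusted p = 0.14), Cdc45 (0.47, adjusted p = 0.54), Orc6, Mcm3 and Mcm6 were, like it, without overlap.

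**Figure D3:**
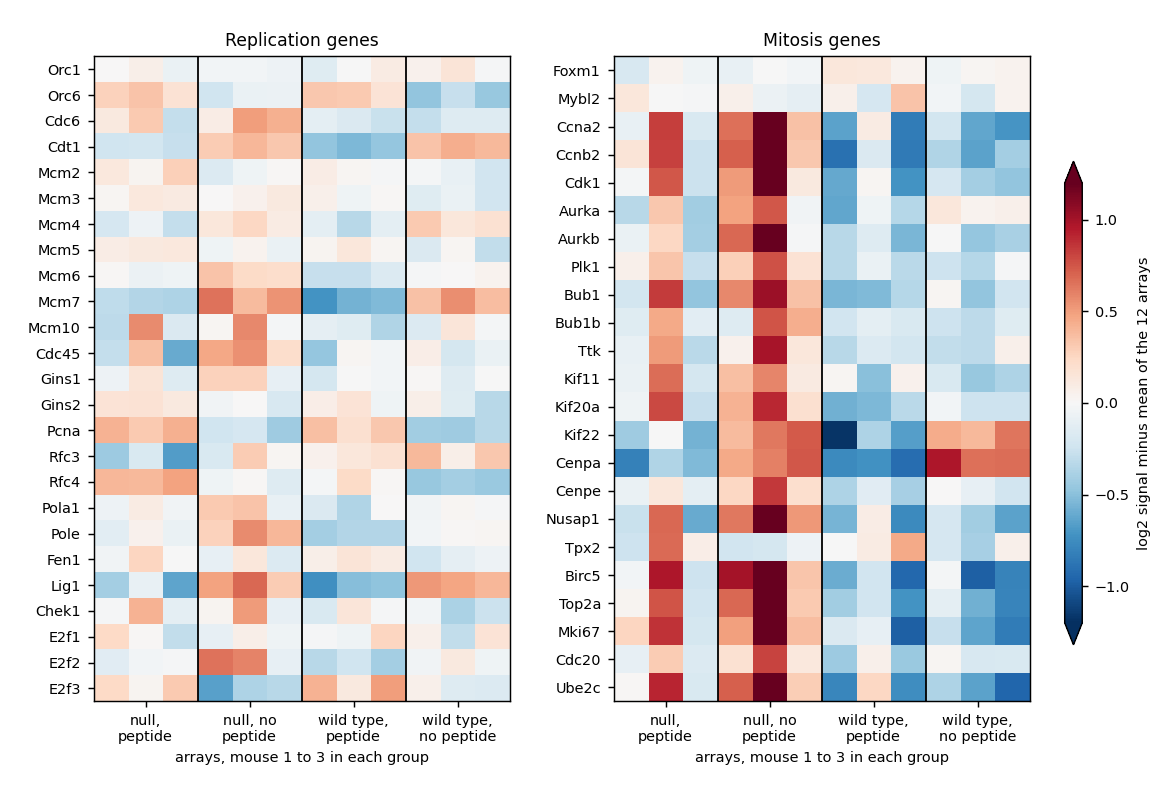
Log2 signal of each gene (rows) on each of the 12 arrays (columns, mice 1 to 3 within a group) minus that gene's mean over the arrays; red is above the mean, blue below, and colours saturate at the ends of the scale. The mitosis rows (right) are reddest in the null array of mouse 2 without peptide, highest of its group for 19 of 23 genes. The replication rows (left), for which that array is the highest of its group in 16 of 25 genes, change mainly with peptide.

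The mitosis genes moved together across mice, in an order of labelled mice that was kept with peptide in null cells only. In null cells without peptide mouse 2 was the highest for 19 of 23 genes and mouse 3 the lowest for 17, and with peptide the same mice were highest for 22 and lowest for 19. In wild-type cells without peptide mouse 1 was the highest for 16 genes and mouse 2 the lowest for 15. With peptide wild-type mouse 2 was the highest for 17. The order of null mice was not particular to the mitosis genes. Of the 25 replication genes, null mouse 2 was the highest for 16 without peptide and for 16 with it. Null mouse 3 was the lowest for 15 and 13 of them. The share of all genes with this order was not counted. The mean over the 23 genes was 6.24, 6.77 and 6.09 in null cells without peptide, against 5.78, 5.53 and 5.59 in wild-type cells. With peptide it was 5.73, 6.35 and 5.58 in null cells, against 5.40, 5.69 and 5.40 in wild-type cells. Without null mouse 2 the median difference before peptide was 0.48 over the mitosis genes, and 0 were called.

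Null mouse 2 also stood apart in markers of other cells. The mean of 10 B cell markers was 9.08, 9.75 and 9.05 in null cells without peptide, against 8.62, 8.69 and 8.60 in wild-type cells. Of these markers 10 of 10 were without overlap above wild type, against 9.59% of all genes, and 0 were called. The mean of 5 plasma cell markers was 8.97, 9.49 and 8.81 in null cells, against 8.52, 8.27 and 8.21 in wild-type cells, and that of 6 myeloid markers was 7.65, 8.13 and 7.60, against 7.46, 7.22 and 7.65. Null mouse 2 was the highest array in each of these lists. In wild-type cells mouse 1 was the highest for plasma cell markers, as for the mean of the mitosis genes. There mouse 2 was the highest for B cell markers and mouse 3 for myeloid markers. The 5 T cell markers averaged 11.39, 10.96 and 11.46 in null cells, against 11.27, 11.38 and 11.34 in wild-type cells, so null mouse 2 was the lowest. The 5 germinal centre B cell markers measured averaged 5.66, 6.14 and 5.69 in null cells, against 5.46, 5.28 and 5.05 in wild-type cells. The 3 erythroid markers measured averaged 4.11, 4.30 and 3.94 in null cells, against 5.03, 5.78 and 4.63 in wild-type cells, and 0 were called. The 3′ minus 5′ signal of the actin control, a measure of RNA integrity, ran from 0.214 to 0.355 in null cells and from 0.252 to 0.296 in wild-type cells without peptide, with null mouse 2 at 0.264. The part of B cell, plasma cell or myeloid content in the mitosis values was not tested.

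**Figure D4:**
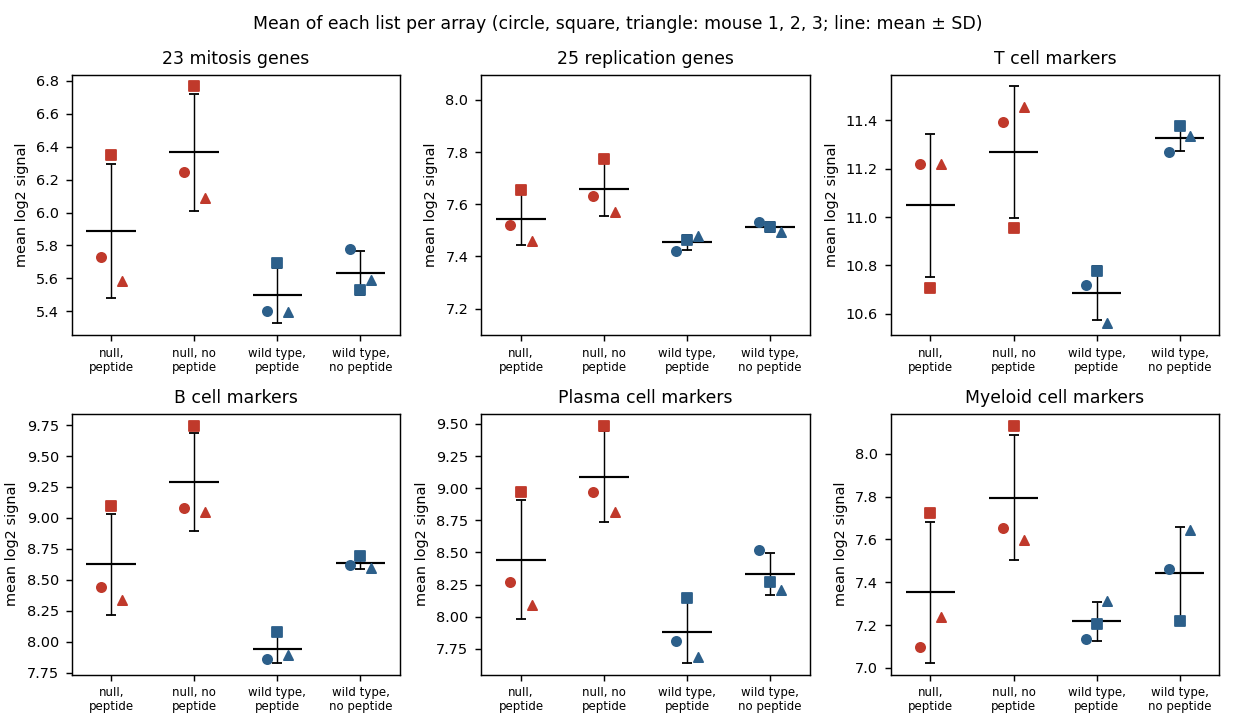
Mean log2 signal per array (vertical axis, a scale of its own in each panel) of the mitosis genes, the replication genes and 4 lists of cell type markers, by group; points are arrays, with circle, square and triangle for mouse 1, 2 and 3, and lines give mean ± SD. Null mouse 2 (red square) is the highest array of its group for the mitosis genes, at 6.77 without peptide, and for B, plasma and myeloid markers, and the lowest for T cell markers.

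Null and wild-type cells were then compared with peptide. None of the 48 genes was called, against 1.64% of all genes, and the median difference, null minus wild type, was 0.286 over mitosis genes, 0.097 over replication genes and -0.027 over all genes. All 3 null values were above all 3 wild-type values for 2 of 23 mitosis genes, Kif20a, a kinesin of cytokinesis, and Cenpe, a kinetochore kinesin, and for 6 of 25 replication genes (Cdt1, Mcm6, Mcm7, Rfc4, Pole and E2f2), against 10.9% of all genes. The largest differences were 0.88 for Ccnb2 (adjusted p = 0.22), 0.82 for Birc5 (adjusted p = 0.31) and 0.72 for Mki67 (adjusted p = 0.28). Among replication genes the smallest adjusted p were those of Rfc4 (0.35, adjusted p = 0.083) and Rfc3 (-0.55, adjusted p = 0.098), both of the clamp loader and opposite in sign. Rfc3 passed the test without null mouse 2 (adjusted p = 0.021). B cell markers with peptide averaged 8.45, 9.10 and 8.34 in null cells, against 7.86, 8.08 and 7.90 in wild-type cells. Of these markers 2 of 10 were called higher, Cd79b (1.19, adjusted p = 0.014) and Fcrla (1.25, adjusted p = 0.014), against 1.64% of all genes called in either direction. Their part in the differences of the members was not tested. Each array enters more than 1 of the comparisons described, so these are not independent.

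**Figure D5:**
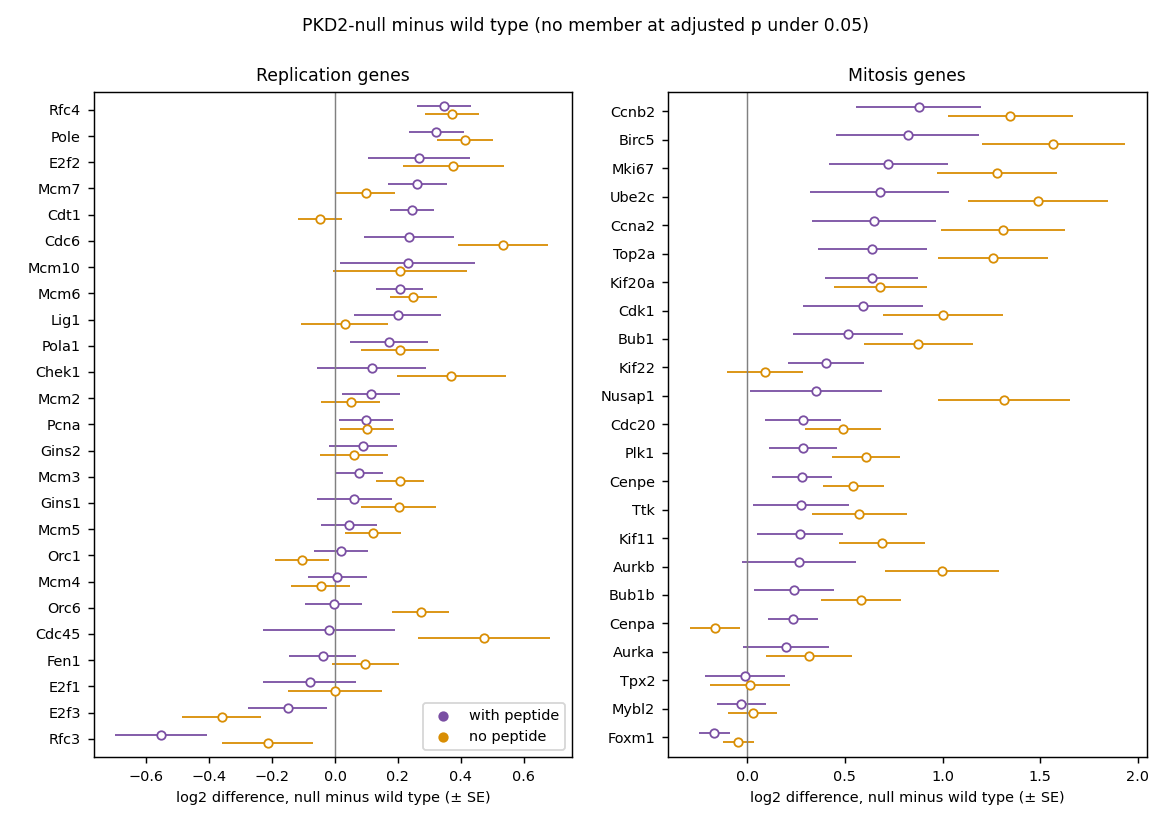
Log2 difference, null minus wild type, with its SE (horizontal axis), for the 25 replication genes (left) and 23 mitosis genes (right), with peptide (purple) and without peptide (orange). No gene had an adjusted p under 0.05. Most mitosis genes lie right of 0, with medians of 0.286 with peptide and 0.681 without it, and replication genes lie nearer to 0.

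Other genes of the same pathways, from longer lists, were set beside the members. Of 36 other replication genes measured, null cells showed 5 rises and 17 falls and wild-type cells 5 rises and 15 falls, with medians of -0.305 and -0.253, against 12.5% of all genes rising and 19% falling in null cells and 15.1% and 20.4% in wild-type cells. Those with the largest rises were Pold2, a subunit of polymerase delta (1.32 in null and 1.68 in wild-type cells), Tipin, a fork protection protein (0.70 and 0.82), Orc2, of the origin recognition complex (0.60 and 0.74), and Chaf1b, a histone chaperone subunit (0.65 and 0.58). The largest falls were those of Gmnn, the inhibitor of Cdt1 (-1.07 in null and -1.39 in wild-type cells), Rpa1, a single-strand binding protein (-0.96 and -1.23), Ccne1, a cyclin of S phase entry (-0.82 and -1.09), and Rbl1, a pocket protein that restrains E2F (-1.18 and -0.96). All of these passed the test in both genotypes. Rpa1 was also the gene of both lists that differed between genotypes, at 0.43 with peptide (adjusted p = 0.038), and 0 others of these lists did in either condition.

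Of 45 other mitosis genes, null cells showed 0 rises and 15 falls (0 and 23 with the block) and wild-type cells 1 rise and 13 falls (2 and 16 with the block). Of all genes, 12.5% rose and 19% fell in null cells (13.4% and 21.4% with the block). In wild-type cells 15.1% of all genes rose and 20.4% fell (16.3% and 22% with the block). The median was -0.377 in null and -0.116 in wild-type cells. Cdc25b, the phosphatase that activates the mitotic kinase, averaged 7.45 ± 0.086 in null cells with peptide and 9.52 ± 0.426 without it, a fall of 2.07, and 6.78 ± 0.304 in wild-type cells with peptide and 9.35 ± 0.226 without it, a fall of 2.57 (SD, n = 3 each). Smc4, a condensin subunit, fell by 1.38 in null and 1.78 in wild-type cells, Ndc80, of the outer kinetochore, by 1.51 and 1.52, Racgap1, of the central spindle, by 1.45 and 1.52, and Stmn1, which destabilises microtubules, by 1.53 and 1.25. The riser was Ckap2, a spindle protein, with 0.56 in wild-type cells (adjusted p = 0.0089) and -0.04 in null cells (adjusted p = 0.89). Before peptide the median difference of these 45 genes, null minus wild type, was 0.328. Of them 20 were without overlap above wild type, against 9.59% of all genes, and 0 were called.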

How the data were processed

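RNA of lymph node cells was measured on 12 Affymetrix arrays. The deposited table of the authors holds log2 signals of 45101 probe sets. Per the submitters' processing notes the tool was Affymetrix Expression Console 1.1. How signals were normalized is not stated in the sources used here. Values ran from 2.43 to 15.07. Sorted and set side by side, the arrays were never more than 0.253 apart, and 0 pairs held the same values, so nothing was normalized again. The number of arrays limits the precision.

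Control probe sets (64) were left out. Group means of the other 45037 were estimated by limma (version 3.58.1, under R 4.3.3) (residual degrees of freedom 8, prior 4.18). The 5 comparisons set peptide against no peptide in each genotype, null against wild type in each condition, and the difference of the peptide effects. P-values were two-sided and adjusted over all 45037 probe sets after Benjamini and Hochberg. Probe sets with 1 symbol (34945) were named from the platform annotation, and 932 with several were not used as genes. The lists of members, other pathway genes and markers were chosen with earlier results of these data known, and the code was tested on simulated data.

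Named per array are called members, at most 10 per set and comparison by smallest adjusted p, and uncalled ones with a log2 difference of at least 1. Of other pathway genes at most 4 rises and 4 falls per list and peptide comparison are named. Other genes in the text were singled out after their values were seen. Promoters are those of the 2 members per set with the smallest wild-type adjusted p among those called in both genotypes.

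Animal numbers in the labels pair the arrays of a mouse. Deviations from group means correlated at 0.116 to 0.577 between the arrays of 1 mouse and at -0.399 to 0.129 between mice of a genotype. The 0.116 was that of wild-type mouse 2, whose array with peptide correlated at 0.129 with that of wild-type mouse 3 without it. The values thus do not bear out the pair of wild-type mouse 2. The main fit leaves the mouse out. Alternatives were the mouse as a block, quantile normalization, leaving out probe sets with a mean under 5, limma-trend, averaging all probe sets of a gene, and leaving out each mouse, also with the block, the last added after the data were seen.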

Additional observations from a re-analysis of the deposited data

How the results depend on the processing

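With the mouse as a fixed replicate block, 17 mitosis genes in place of 2 fell in null cells. The block moved no other count of called members of a set by more than 1.5 times. In the difference of the peptide effects, mitosis genes with an unadjusted p under 0.05 numbered 9 with the block in place of 1, none of them called. Without the block, leaving out 1 mouse moved that count between 2 and 6, the 6 being reached without null mouse 2. With the block (a choice made after the data were seen) it ran from 7 to 18 in null cells, and from 2 to 6 in wild-type cells against 3, while mitosis genes called higher in wild-type cells ran from 0 to 1, replication genes called lower in null cells from 5 to 8, and those called higher in wild-type cells from 3 to 5. In null against wild-type cells with peptide, the count of replication genes called higher was 1 in place of 0 without probe sets of a mean under 5 (Rfc4), with limma-trend (Cdt1) and with all probe sets averaged (Rfc4). The count called lower was 1 with all probe sets averaged (Rfc3) and ran from 0 to 1 on leaving out 1 mouse (Rfc3 without null mouse 2). Mitosis genes without overlap numbered 0 in place of 2 without dim probe sets, 5 with probe sets averaged, and 2 to 12 on leaving out 1 mouse, which can only raise such a count (12, without wild-type mouse 2, stood beside 14.7% of all genes). Without peptide, replication genes without overlap numbered 7 to 12, the 12 without null mouse 3. The dim filter removes Kif20a and Cenpe from the fit, and the cause of the other moves was not tested. Of 363 values of single genes under these alternatives, 345 kept their direction and side of the threshold, 18 lost the call and 0 reversed. Signals near or below the array medians limit what can be read for 3 replication and 8 mitosis genes.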
